A study of Homo sapiens with 8 samples.

Results

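Forkhead transcription factors were followed in hCMEC/D3, an immortalised human brain endothelial line used as a model of the blood-brain barrier and made to divide by telomerase and the simian virus large T antigen, which all samples carry. The members are all listed genes whose symbol has FOX, a class letter from A to S, a number and, in some, a final A or B. There were 44 such genes among the 23346 listed genes, and FOXO6 was not among the listed symbols. RNA was sequenced from 8 samples labelled as replicates 1 to 8 of the line, with no treatment, genotype or time named, so there was 1 group and no comparison between conditions. Nothing in the labels says that the replicates were separate cultures, so the spread between these samples may be technical. Every p-value below rests on that spread. Each library held 34694272 to 45102622 read pairs on listed genes.

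Forkhead proteins bind DNA through a winged-helix domain and regulate development, metabolism and the cell cycle. In vessels, FOXC1, FOXC2 and FOXF1 act in endothelial and perivascular development, FOXF2 is known from brain pericytes, and FOXQ1 is known from the brain endothelium. FOXO proteins are held in the cytoplasm after phosphorylation by AKT and enter the nucleus when insulin or growth factor signalling is low, so their mRNA level does not give their activity.

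Replicates 2, 7 and 8 stood apart from the other 5 libraries. The first principal component of all detected genes held 83.8% of the variance and was 12.6 to 58.3 in those 3 libraries against -25.9 to -16.6 in the others. Replicate 7 was intermediate, at 12.6 against 40.8 in replicate 2 and 58.3 in replicate 8. In the same 3 libraries longer transcripts were lower, with slopes of -0.35 to -0.11 log2 units per doubling of length against 0.09 to 0.15 in the others. Transcripts rich in G and C were higher there, with slopes of 0.10 to 0.37 log2 units per 10 percentage points against -0.19 to -0.10. Of all detected genes 27.3% had these 3 libraries all below the other 5, and 30.9% had them all above. Among the 16 detected forkhead genes 5 were in the first class (FOXJ2, FOXJ3, FOXN2, FOXN3 and FOXO3) and FOXP4 was in the second. All 6 endothelial markers were detected, with a summed level of 1509 to 2720 CPM (counts scaled to a common library total), while the 3 epithelial markers (0 detected) summed to 0.804 to 2.01 CPM and the 2 astrocyte markers (0 detected) to 0.476 to 0.675 CPM. Of 3 mural markers 2 were detected, at a summed 18.5 to 31.8 CPM, of 3 neuron markers 2, at 51.6 to 66.4 CPM, and of 2 immune markers 1, at 46.6 to 84.6 CPM. The part of these markers in the results below was not tested.

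A gene was called detected when it had at least 1 CPM in all 8 libraries, and 16 of the 44 forkhead genes were, against 51.3% of all listed genes. By role, 4 of 4 insulin and stress genes and the cell cycle gene FOXM1 were detected. So were 8 of 9 genes placed as broadly expressed and 3 of 7 genes placed with the vasculature. Roles were assigned for this report, with FOXL1, known from gut mesenchyme, placed with the vasculature. FOXP2, known from speech circuits, was placed by its class with the broadly expressed genes and was the undetected gene there. The 23 genes given no other role are called known from other lineages, and none of them was detected. Since this class holds all remaining members, and broadly expressed is itself a statement on expression, the split by role is descriptive only. Of the members whose canonical transcript has over 2 exons 13 of 21 were detected, and of those with 1 or 2 exons 3 of 23. The share of all listed genes detected was not counted by exon number, so no link of exon number to detection is drawn. The family took 0.121% ± 0.00918 of all counts (SD, n = 8), lowest in replicate 8 at 0.102% and highest in replicate 6 at 0.129%. Per length, as CPM per kilobase of the canonical transcript (RPKM), the members summed to 228 ± 9.24 (SD, n = 8). FOXM1, FOXN3, FOXO3B, FOXP1 and FOXP4 overlap another listed gene, and 12 detected members overlap another annotated gene, so reads in the shared stretches are uncertain.

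**Figure D1:**
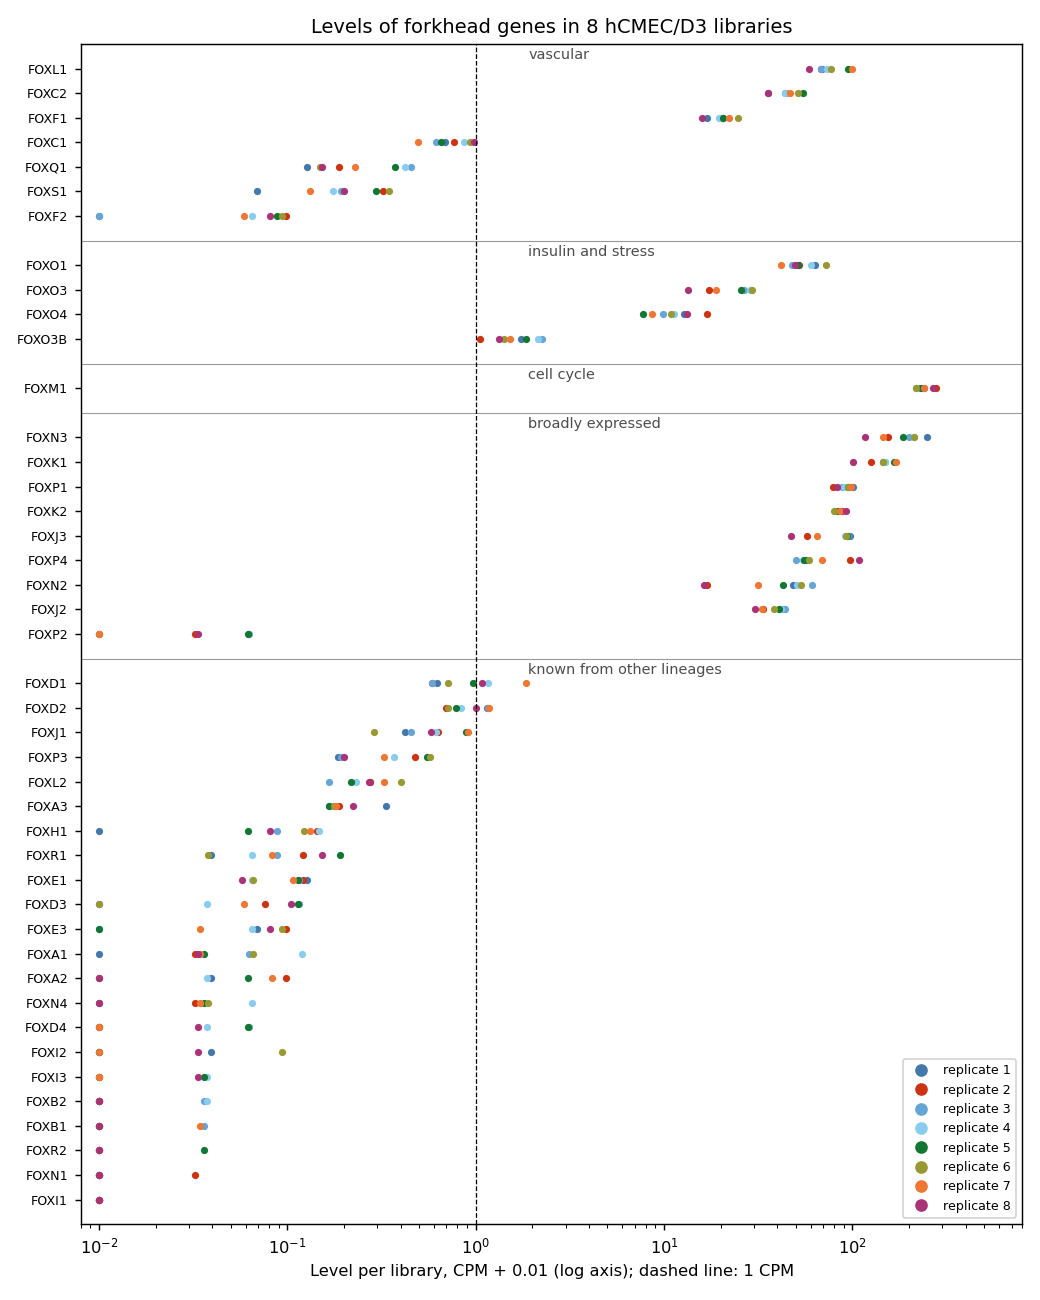
Level of the forkhead genes by role, as CPM + 0.01 on a log axis, with 1 point per library in the colour of its replicate and a dashed line at 1 CPM. Detected genes run from FOXM1 near 239.9 CPM to FOXO3B at 1.65 CPM, and the undetected members have means under 1 CPM.

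The brain vascular genes FOXQ1, FOXF2 and FOXC1 lie together at 6p25.3 and were all below the level called detected. FOXC1, at chromosome 6 from 1610681 to 1614129 on the plus strand (hg19, 1 exon), is a regulator of vascular, eye and neural crest development. Replicates 1 to 8 gave 0.675, 0.753, 0.603, 0.854, 0.648, 0.924, 0.487 and 0.970 CPM, from 230 read pairs in all. FOXQ1, at 1312675 to 1314993 on the same strand (1 exon), gave 0.117, 0.177, 0.446, 0.413, 0.363, 0.140, 0.219 and 0.142 CPM from 78 read pairs. Replicates 3, 4 and 5 were the highest for FOXQ1, whereas FOXC1 was lowest in replicate 7 and highest in replicate 8. FOXF2, at 1390069 to 1395832 (2 exons), had 0, 4, 0, 2, 3, 3, 2 and 3 read pairs, 17 in all. FOXF2 was thus at 0 in replicates 1 and 3, where 3 read pairs would be 0.0880 and 0.0786 CPM, and no library exceeded 0.0886 CPM.

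A second forkhead cluster, at 16q24.1, holds FOXF1, FOXC2 and FOXL1, and all 3 were detected in every library. FOXF1, at chromosome 16 from 86544133 to 86548070 (plus strand, 2 exons), acts in lung and gut mesenchyme and in vessel formation. It gave 16.9, 20.2, 20.4, 19.7, 20.7, 24.6, 22.1 and 15.97 CPM in replicates 1 to 8. FOXC2, at 86600857 to 86602537 (1 exon), is needed for lymphatic valves and gave 35.6, 44.5, 43.8, 43.98, 54.7, 51.4, 46.8 and 35.5 CPM. FOXL1, at 86612115 to 86615304 (1 exon), is known from gut mesenchyme and gave 69.4, 68.5, 68.0, 73.3, 94.4, 76.6, 99.3 and 58.9 CPM. All 3 were lowest in replicate 8, FOXF1 was highest in replicate 6, FOXC2 in replicate 5 and FOXL1 in replicate 7. Per length, FOXC2 and FOXL1 each stood at 15.4 RPKM (SD 2.32 and 2.81, n = 8) and FOXF1 at 5.70 ± 0.775 RPKM. The canonical transcripts of FOXC2 and FOXL1, 2900 and 4930 bases, exceed the gene spans given here. So do those of FOXC1 and FOXQ1 at 6p25.3, 3983 and 2661 bases. The RPKM of these genes therefore rests on the transcript assumed. Sums and ratios that use these values share this limit. FOXC2 overlaps the antisense gene FOXC2-AS1, and the library kit does not mark strand, so reads of the pair cannot be told apart.

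The 16q24.1 genes summed to 36.5 ± 5.35 RPKM and the 6p25.3 genes to 0.302 ± 0.0585 RPKM (SD, n = 8). The ratio between the clusters was 88.1 in replicate 8, its lowest, and 189.5 in replicate 7, its highest, so the clusters did not overlap in any library. The gaps within the 6p25.3 cluster are 75075 bases from FOXQ1 to FOXF2 and 214848 bases from FOXF2 to FOXC1. At 16q24.1 they are 52786 bases from FOXF1 to FOXC2 and 9577 bases from FOXC2 to FOXL1. FENDRR, a long noncoding gene listed under an older name, lies on the minus strand with its start 1666 bases before FOXF1 and was at 5.95 ± 0.429 CPM (SD, n = 8), or 1.61 ± 0.116 RPKM. FOXCUT, a noncoding gene near FOXC1, was looked for and not found among the listed genes.

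**Figure D2:**
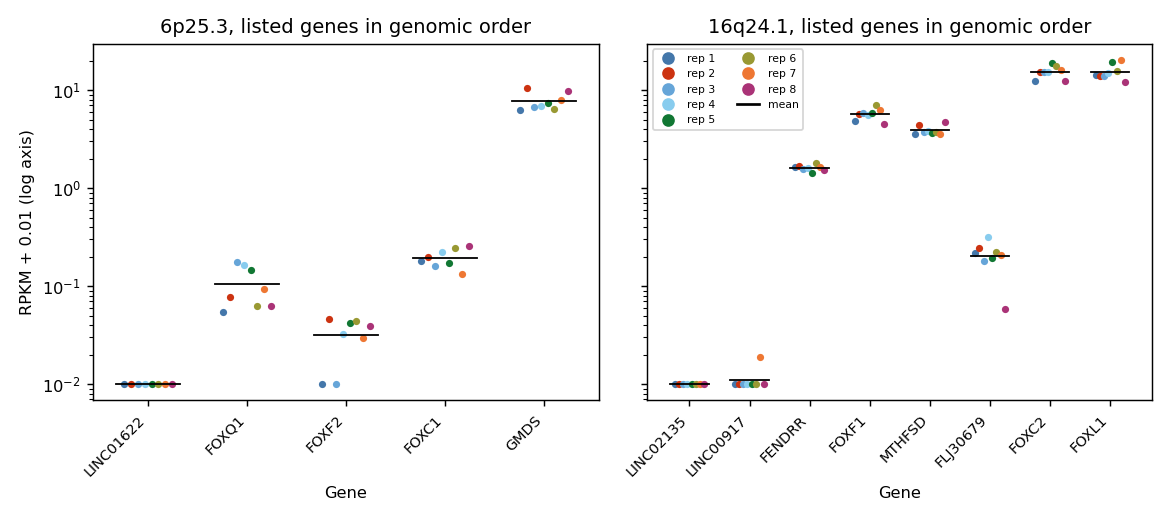
RPKM + 0.01 on a log axis of the forkhead genes of the 6p25.3 (left) and 16q24.1 (right) clusters and the other listed genes within 300 kb, in genomic order, with 1 point per library and a line at the mean. FOXF1, FOXC2 and FOXL1 lie above FOXQ1, FOXF2 and FOXC1 in all 8 libraries.

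The upstream sequences of the 6p25.3 genes are shown because these genes were below the level called detected, beside those of FOXO1 and FOXK2, which were detected. Each is the 250 bases before the RefSeq gene start (GRCh38.p14), 5′ to 3′ on the gene's strand, with CpG dinucleotides in capitals.
FOXQ1 (chr6:1311848-1312097, plus strand): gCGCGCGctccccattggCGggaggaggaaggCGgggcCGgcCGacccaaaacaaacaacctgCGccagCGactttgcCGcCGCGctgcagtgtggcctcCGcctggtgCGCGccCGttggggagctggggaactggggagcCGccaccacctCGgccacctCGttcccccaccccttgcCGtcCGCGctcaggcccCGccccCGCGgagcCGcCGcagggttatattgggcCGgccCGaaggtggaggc
FOXF2 (chr6:1389326-1389575, plus strand): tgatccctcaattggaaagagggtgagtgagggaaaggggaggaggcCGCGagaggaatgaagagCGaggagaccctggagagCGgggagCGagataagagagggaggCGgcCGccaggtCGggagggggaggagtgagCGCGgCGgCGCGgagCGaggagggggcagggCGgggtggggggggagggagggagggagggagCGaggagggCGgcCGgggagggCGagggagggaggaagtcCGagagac
FOXC1 (chr6:1609665-1609914, plus strand): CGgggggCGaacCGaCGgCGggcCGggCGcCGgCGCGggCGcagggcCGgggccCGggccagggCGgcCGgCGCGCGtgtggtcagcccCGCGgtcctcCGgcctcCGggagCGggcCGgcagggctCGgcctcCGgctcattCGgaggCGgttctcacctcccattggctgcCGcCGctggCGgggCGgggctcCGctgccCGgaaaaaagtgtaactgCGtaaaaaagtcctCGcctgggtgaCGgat
FOXO1 (chr13:40666642-40666891, minus strand): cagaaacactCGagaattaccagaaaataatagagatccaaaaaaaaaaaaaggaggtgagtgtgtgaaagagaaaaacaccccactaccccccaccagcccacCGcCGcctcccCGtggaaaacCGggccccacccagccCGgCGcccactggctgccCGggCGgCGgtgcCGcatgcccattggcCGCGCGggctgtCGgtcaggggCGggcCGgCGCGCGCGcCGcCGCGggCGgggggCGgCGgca
FOXK2 (chr17:82519482-82519731, plus strand): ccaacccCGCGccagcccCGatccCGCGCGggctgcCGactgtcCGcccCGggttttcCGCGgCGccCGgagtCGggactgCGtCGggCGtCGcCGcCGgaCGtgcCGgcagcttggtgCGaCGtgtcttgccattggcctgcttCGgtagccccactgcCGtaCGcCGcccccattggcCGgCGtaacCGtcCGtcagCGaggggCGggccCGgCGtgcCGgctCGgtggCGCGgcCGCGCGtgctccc

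CpG dinucleotides numbered 29 in the FOXQ1 sequence, 20 in FOXF2 and 37 in FOXC1, against 27 in FOXO1 and 43 in FOXK2. At least as many are found in 13.8%, 32.1% and 3.87% of the 27305 promoters for the first 3 genes, and in 17.3% for FOXO1 and 1.0% for FOXK2. The promoter table used here, made from RefSeq, matched 33 of the 44 members. Members without an entry in that table include FOXA2, FOXC2, FOXE3, FOXF1, FOXH1, FOXJ1, FOXL1, FOXM1, FOXN2 and FOXS1. The 11 detected members with an entry had a median of 31 CpG (range 8 to 44) and the 22 undetected members 17.5 (range 0 to 37). For comparison, the median was 21 over 8607 detected genes and 6 over 5452 listed genes that were not detected. The forkhead core motif TGTTTAC, searched on both strands, was in 2.98% of all promoters and in 0 of the 33 forkhead promoters. It was in 1.79% of promoters of detected genes and 3.08% of those of listed genes not detected. Median GC content was 67.2% in the forkhead promoters against 58.0% in all promoters. With so few promoters and so rare a motif, a count of 0 shows no depletion, and the difference was not tested.

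The last member placed with the vasculature, FOXS1, known from perivascular cells, had 65 read pairs and a mean of 0.206 CPM. Paralogues were then compared within libraries, as the mean log2 ratio of RPKM + 0.1, tested by exact permutation of the signs of the 8 ratios (two-sided, smallest p 0.00781) and adjusted by Benjamini-Hochberg over 14 pairs. FOXC1 was below FOXC2 in 8 of 8 libraries, with a log2 ratio of -5.76 ± 0.34 (SD, n = 8, exact adjusted p = 0.00994). Over summed read pairs per length FOXC2 was 82.7-fold higher (95% counting interval 72.6 to 94.7). The interval does not cover the choice of transcript length. FOXF2 was below FOXF1 in 8 of 8 libraries, at -5.57 ± 0.22 (SD, n = 8, exact adjusted p = 0.00994), and FOXF1 was 256-fold higher per length over summed read pairs (159.5 to 439). The added 0.1 lowers such ratios: with 0.01 the means were -6.31 for FOXC1/FOXC2 and -7.69 for FOXF2/FOXF1, and with 1 they were -3.77 and -2.70. On the authors' log2 CQN values, which adjust for length and GC content, the FOXC1/FOXC2 mean was -7.82. In every library FOXC1 and FOXF2 were under 1 CPM, and FOXC2 and FOXF1 were above it. The direction of both ratios follows from those levels, so their p-values add no separate support.

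Within 6p25.3, FOXF2 was the lowest gene per length. FOXC1 exceeded it in 8 of 8 libraries by 1.23 ± 0.21 log2 units (SD, n = 8, exact adjusted p = 0.00994), and over summed read pairs by 8.33-fold (5.09 to 14.5). FOXQ1 exceeded FOXF2 in 8 of 8 libraries, with a FOXF2/FOXQ1 log2 ratio of -0.65 ± 0.43 (SD, n = 8, exact adjusted p = 0.00994). FOXC1 exceeded FOXQ1 in 7 of 8 libraries, by 0.58 ± 0.48 log2 units (SD, n = 8, exact adjusted p = 0.0182). The order FOXC1, FOXQ1, FOXF2 thus passed the test at each step on canonical transcripts, at depths of 17 to 230 read pairs per gene.

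The FOXO group, the insulin and stress branch of the family, was detected throughout. FOXO1 (chromosome 13 from 41129801 to 41240734, minus strand, 3 exons), a regulator of endothelial quiescence and metabolism, was the most abundant. It gave 63.4, 52.0, 48.0, 60.6, 51.4, 72.7, 41.6 and 49.3 CPM in replicates 1 to 8. FOXO3 (chromosome 6 from 108881026 to 109005971, plus strand, 3 exons), known from stress resistance and longevity, gave 29.1, 17.2, 26.6, 28.7, 25.7, 29.5, 18.9 and 13.4 CPM. FOXO3 was lowest in replicates 8, 2 and 7, the libraries that stand apart, all below the other 5, as were 27.3% of detected genes. FOXO4 (chromosome X from 70315999 to 70323384, plus strand, 3 exons) gave 12.8, 16.8, 9.91, 11.3, 7.72, 10.9, 8.67 and 13.3 CPM and was highest in replicates 2 and 8. FOXO3B, a copy of FOXO3 on chromosome 17 (18569236 to 18576494, minus strand), was at 1.65 ± 0.406 CPM (SD, n = 8). Because its sequence is close to that of FOXO3, the split of reads between the copies is uncertain.

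Per length, FOXO1 stood at 9.50 ± 1.73 RPKM, FOXO3 at 3.24 ± 0.854, FOXO4 at 3.13 ± 0.792 and FOXO3B at 0.282 ± 0.0694 (SD, n = 8). FOXO1 exceeded FOXO3 in 8 of 8 libraries by 1.55 ± 0.33 log2 units of RPKM + 0.1, or 2.93-fold (SD, n = 8, exact adjusted p = 0.00994). It exceeded FOXO4 in 8 of 8 libraries by 1.59 ± 0.37 log2 units, or 3.00-fold (SD, n = 8, exact adjusted p = 0.00994). FOXO3 and FOXO4 were not distinguished, with a log2 ratio of 0.03 ± 0.63 (SD, n = 8, exact adjusted p = 0.898) and FOXO3 higher in 6 of 8 libraries. The exceptions were replicates 2 and 8, at -0.94 and -0.96, while the others lay between 0.12 and 0.71. Without replicates 2, 7 and 8 the mean log2 ratio of FOXO3 to FOXO4 was 0.41, a value with no test. The canonical transcripts are 7296 bases long for FOXO3 and 3644 for FOXO4, with 48.8% and 56.9% GC. On the authors' CQN values FOXO3 was higher by 0.35 log2 units (exact adjusted p = 0.0352, adjusted only over the pairs with CQN values for both genes). As a sum, FOXO1, FOXO3 and FOXO4 came to 15.9 ± 2.504 RPKM, with a range of 12.2 to 19.6.

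The pathway genes are chosen lists, set here beside 51.3% of all listed genes detected. The listed genes that control FOXO proteins were all detected as mRNA. Of 23 listed FOXO regulators (the AKT kinases, phosphatidylinositol 3-kinase subunits, 14-3-3 proteins and others) 23 were detected, led by the 14-3-3 genes YWHAZ at 999 ± 124, YWHAE at 699.6 ± 64.0 and YWHAQ at 607 ± 51.5 CPM (SD, n = 8). Of 26 FOXO target genes 24 were detected, led by KLF6 at 638 ± 179, CITED2 at 273 ± 12.8 and TXNIP at 227 ± 97.2 CPM (SD, n = 8). SESN3, at a mean of 0.178 CPM, and IRS2, at 1.62 CPM, did not reach 1 CPM in every library. All 12 listed forkhead cofactors were detected too, among them the deacetylase HDAC2 at 202 ± 11.4 CPM and ASXL1, a chromatin regulator, at 169.9 ± 19.7 CPM (SD, n = 8).

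FOXM1, which drives genes of the G2 phase and mitosis, was the most abundant forkhead gene per length in all 8 libraries. It lies at chromosome 12 from 2966847 to 2986321 (minus strand, 9 exons). Replicates 1 to 8 gave 239.8, 278, 218, 226, 231, 217, 239.5 and 269 CPM, highest in replicates 2 and 8. At 67.5 ± 6.36 RPKM it lay at the 90.6th percentile of the detected genes. Its share of the summed RPKM of the family was 29.7% ± 3.73 (SD, n = 8), between 26.0% in replicate 6 and 36.2% in replicate 8. On canonical transcripts the next largest mean share was that of FOXN3, at 10.01%. However, FOXL1 exceeded FOXN3 in replicate 7, and FOXP4 and FOXK2 exceeded it in replicate 8. The canonical transcripts of FOXL1 and FOXC2 exceed their gene spans, so the order below FOXM1 rests on the transcript assumed. FOXM1 exceeded FOXO3 in 8 of 8 libraries by 4.38 ± 0.53 log2 units, or 20.9-fold (SD, n = 8, exact adjusted p = 0.00994), most in replicates 2 and 8 at 4.99 and 5.30. Without replicates 2, 7 and 8 the mean was 4.03. The levels of FOXM1 and FOXO3 in each library already fix the direction of this ratio, so its p-value adds no separate support. All 20 listed FOXM1 targets and partners were detected, against 51.3% of all listed genes. They were led by TOP2A, the mitotic topoisomerase, at 818 ± 245, CENPF at 378 ± 146 and MYBL2 at 342 ± 85.0 CPM (SD, n = 8).

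The broadly expressed genes of the FOXK, FOXJ, FOXN and FOXP classes made up 8 of the 16 detected members. FOXN3, a repressor linked to the cell cycle checkpoint, gave 248, 154, 199, 213, 185, 212, 145.9 and 116 CPM in replicates 1 to 8 and was lowest in replicates 8, 7 and 2. FOXK1 and FOXK2, regulators of metabolism and autophagy genes, were at 144 ± 22.5 and 85.4 ± 4.26 CPM (SD, n = 8). FOXK2 spread least of all members, with a coefficient of variation of 4.99% and values from 79.4 to 92.9 CPM. FOXJ3 gave 96.8, 57.2, 94.3, 91.7, 93.7, 92.1, 64.8 and 47.3 CPM, with replicates 2, 7 and 8 again all below the other 5. FOXJ2 ran from 30.3 to 43.7 CPM with a median of 39.6.

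FOXP1, which acts in lymphoid, neural and endothelial cells, ran from 78.9 to 100.5 CPM with a median of 92.6 CPM. FOXP4 gave 56.4, 97.6, 50.4, 54.7, 55.2, 58.5, 68.7 and 108 CPM, with replicates 2, 7 and 8 all above the other 5, as were 30.9% of detected genes. FOXN2 gave 48.3, 17.0, 61.2, 51.1, 42.9, 53.3, 31.6 and 16.3 CPM, low in those 3 libraries. FOXP2, known from speech circuits, was the undetected gene of this group, with 6 read pairs over all libraries against 28269 for FOXP1. Per length FOXP1 was 4295-fold higher over summed read pairs (1973 to 11705).

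Among close relatives of this group, FOXJ3 exceeded FOXJ2 in 8 of 8 libraries, by 2.15-fold per length, with a FOXJ2/FOXJ3 log2 ratio of -1.10 ± 0.22 (SD, n = 8, exact adjusted p = 0.00994). FOXN3 exceeded FOXN2 in 8 of 8 libraries by 3.31-fold, with a FOXN2/FOXN3 log2 ratio of -1.73 ± 0.47 (SD, n = 8, exact adjusted p = 0.00994). FOXP1 and FOXP4 were not distinguished per length of the canonical transcript, at 0.20 ± 0.50 (SD, n = 8, exact adjusted p = 0.311), with FOXP1 higher in 6 libraries and lower in replicates 2 and 8. Without replicates 2, 7 and 8 the mean log2 ratio of this pair was 0.50, again with no test. Over the length of all their exons FOXP1 was lower, at -1.53 (exact adjusted p = 0.00994), so the order of these genes rests on the transcript assumed. The FOXK1/FOXK2 log2 ratio was -0.35 ± 0.30 (SD, n = 8, exact adjusted p = 0.00994) on canonical transcripts, -0.23 without replicates 2, 7 and 8, but 0.34 over all exons and 0.31 on the authors' CQN values. No order of FOXK1 and FOXK2 per length is therefore given.

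**Figure D3:**
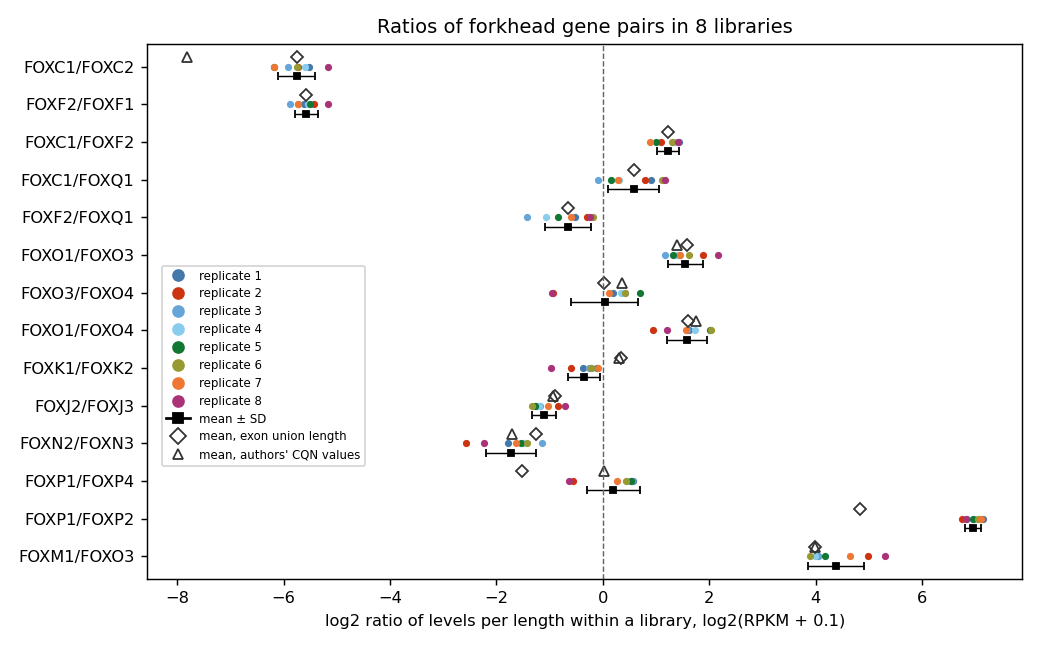
Log2 ratio of RPKM + 0.1 for the 14 pairs of forkhead genes, with 1 point per library, squares and bars for the mean and SD (n = 8), diamonds for the mean over exon union lengths and triangles for the mean of the authors' CQN values. The FOXO3/FOXO4, FOXP1/FOXP4 and FOXC1/FOXQ1 points lie on both sides of 0, and the FOXF2/FOXF1 and FOXC1/FOXC2 pairs lie furthest below it.

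The 23 forkhead genes known from other lineages were low or at 0. FOXD1, known from kidney stroma, had 294 read pairs and a mean of 0.937 CPM, and FOXD2 had 289 and 0.931 CPM. These were the undetected members that passed 1 CPM in some library, in 3 libraries each, up to 1.85 CPM for FOXD1 in replicate 7. FOXJ1, the regulator of motile cilia, had 186 read pairs (0.589 CPM), and FOXP3, the regulatory T cell factor, had 109 (0.349 CPM). FOXL2 of the ovary had 81 read pairs and FOXA3 of the liver 59. FOXH1 and FOXR1 had 28 each and FOXE1, of the thyroid, had 27. The liver and gut pioneer factors FOXA1 and FOXA2 had 12 and 11 read pairs over all 8 libraries, FOXD3 had 18 and FOXE3 15. FOXB1, FOXB2, FOXD4, FOXI2, FOXI3, FOXN1, FOXN4 and FOXR2 had 1 to 6 read pairs each, and FOXI1 was at 0 in all 8 libraries. FOXD4 has near-identical copies elsewhere in the genome, so its count is uncertain. Among all 28 undetected members 18 had a mean under 0.1 CPM.

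Spread between the replicates was tested on all 11980 detected genes with the goodness-of-fit test of edgeR against the trend of dispersion on abundance, which asks whether a gene varied more than genes of like abundance. It called 1 of the 16 detected forkhead genes, FOXN2, against 4.66% of all detected genes. FOXN2 lies at chromosome 2 from 48541795 to 48606434 (plus strand, 7 exons), and its highest library was 3.75-fold above its lowest, with an edgeR adjusted p of 0.00690. The libraries low for FOXN2 are those that stand apart, and its transcript has a GC content of 34.4% against a median of 48.4% over the detected genes. Without replicate 2 the edgeR adjusted p of FOXN2 was 0.0627, without replicates 2, 7 and 8 it was 0.467, and with each library's trend on length and GC content removed it was 0.0789. Over all its alternatives it ran from 1.09e-07 to 0.467.

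With that trend removed, FOXC2 (edgeR adjusted p = 0.0298) and FOXP4 (0.0483) passed in place of FOXN2, against 6.59% of all detected genes. FOXC2 ranged over 0.62 log2 units before and 1.22 after the removal, and over 1.76 on the authors' CQN values. Its CQN values were 8.07, 7.23, 8.34, 8.22, 8.41, 8.56, 7.79 and 6.80 in replicates 1 to 8, lowest in replicates 8, 2 and 7. FOXM1 went the other way, from 0.36 to 0.12 log2 units. FOXN3 narrowed from 1.09 to 0.30 and FOXO3 from 1.14 to 0.56, while FOXP1 widened from 0.35 to 0.73. Without replicates 2, 7 and 8, FOXO1 passed (edgeR adjusted p = 0.0242) and no other member did, against 2.42% of all detected genes.

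**Figure D4:**
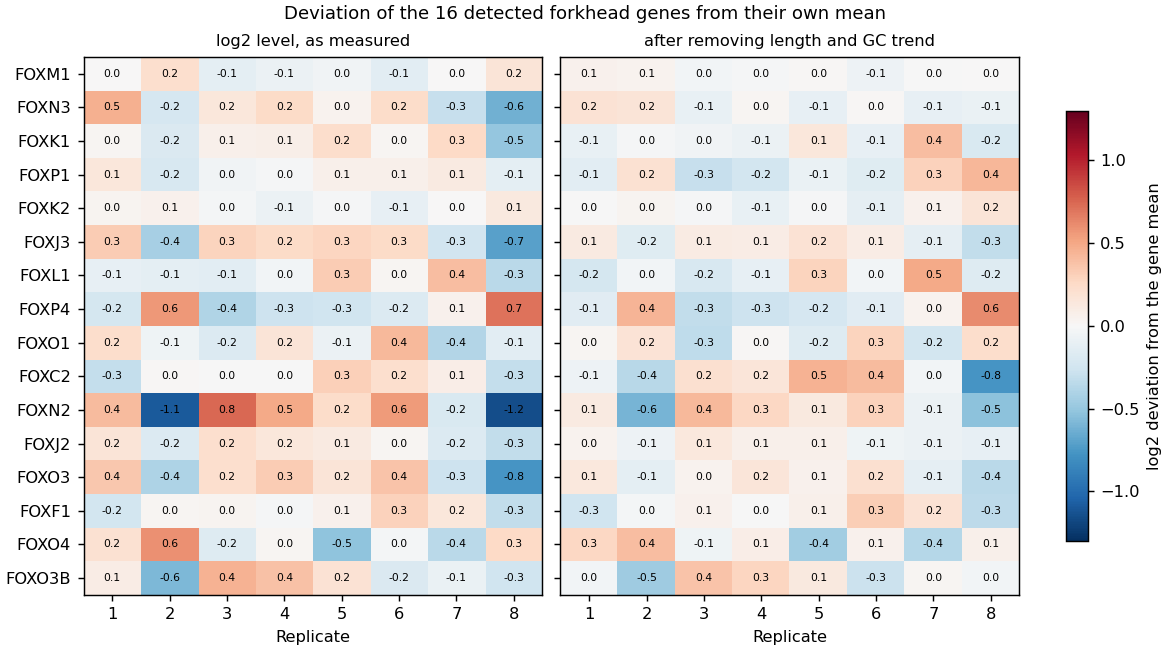
Deviation of each detected forkhead gene from its own mean in each library, in log2 units (blue lower, red higher), before (left) and after (right) removal of each library's trend on length and GC content. FOXN2, FOXN3, FOXJ3 and FOXO3 are low in replicates 2, 7 and 8 before the removal, and FOXC2 is low in replicates 2 and 8 after it.

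The spread of the detected members is given beside that of all detected genes with no test of the difference. Their median coefficient of variation was 18.2% against 19.2% over all detected genes, and their median range was 0.78 against 0.76 log2 units. After the removal of the length and GC trend the medians were 0.64 and 0.48. The canonical transcripts of the detected members had a median length of 5480.5 bases against 3323.

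**Figure D5:**
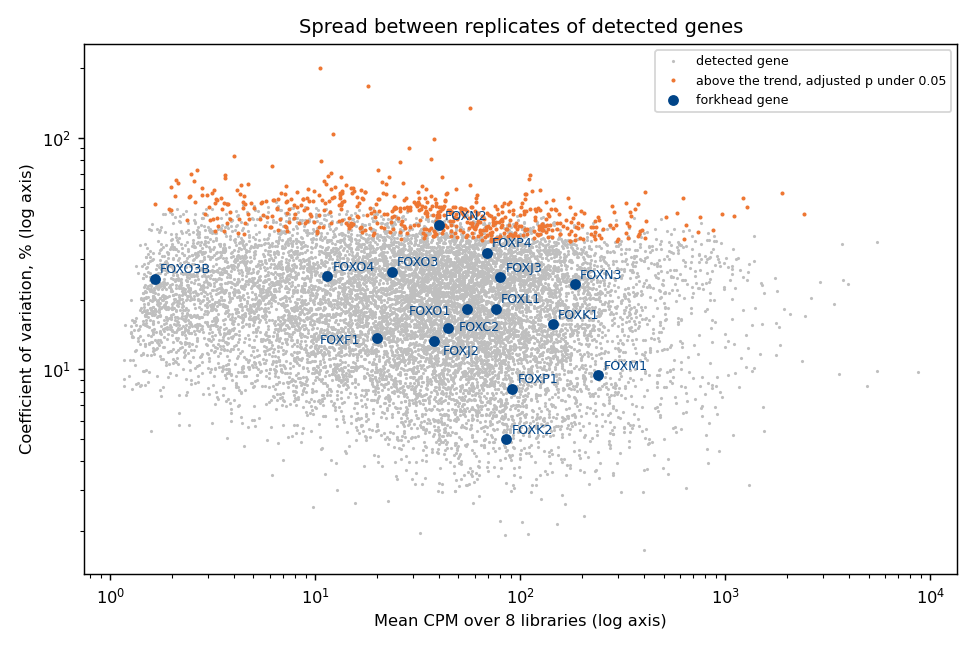
Coefficient of variation in percent against mean CPM, both on log axes, for all detected genes (grey), those past the edgeR test of spread (orange) and the 16 forkhead genes (blue). FOXN2, at 41.9%, has the largest coefficient of variation among the forkhead genes and FOXK2, at 4.99%, the smallest.

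Of the pathway genes, 3 of 24 detected FOXO targets passed the same edgeR test, against 4.66% of all detected genes. They were DEPP1, a FOXO-induced autophagy regulator listed under an older name, RICTOR, a subunit of mTOR complex 2, and KLF4, an endothelial transcription factor. DEPP1 gave 25.1, 43.6, 19.4, 17.9, 10.004, 14.3, 8.96 and 69.1 CPM (edgeR adjusted p = 2.70e-08) and was highest in replicates 8 and 2. RICTOR (edgeR adjusted p = 0.00489) was low in replicates 2, 7 and 8, at 30.2 to 46.5 CPM against 83.4 to 113 CPM in the others. KLF4 (edgeR adjusted p = 0.0263) was lowest in replicates 8 and 2, at 11.4 and 20.4 CPM. With the length and GC trend removed 7 passed, among them DEPP1 and KLF4 but not RICTOR, against 6.59% of all detected genes. Without replicates 2, 7 and 8 the genes that passed were DEPP1, KLF4, GADD45B and TXNIP, against 2.42% of all detected genes. RICTOR did not pass there. KLF4 did not pass without replicate 6 or without replicate 8.

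Of the 20 FOXM1 targets and partners CENPE and CENPF, kinetochore genes with long transcripts, passed (edgeR adjusted p = 0.00666 and 0.0356), against 4.66% of all detected genes. CENPE was at 51.9 to 82.0 CPM in replicates 2, 7 and 8 against 162 to 186 CPM in the others. Neither passed once the length and GC trend was removed or without those 3 libraries. CENPF did not pass either when replicate 1, 3, 4, 7 or 8 alone was left out, which leaves 1 gene of the list, CENPE. Of the 23 FOXO regulators 0 passed in edgeR, with 3 at an unadjusted p under 0.05, and 7 passed against the trend fitted by DESeq2, which called 23.5% of all detected genes. Of the 12 cofactors 0 passed in edgeR, 0 had an unadjusted p under 0.05 and 0 passed against the DESeq2 trend.

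Among 23 vascular genes linked to FOXC and FOXF factors 19 were detected, against 51.3% of all listed genes. They were led by the TGF-beta coreceptor ENG at 689.6 ± 260, the adhesion gene CDH5 at 649 ± 152 and TGFBR2 at 577 ± 114 CPM (SD, n = 8). HEY1, HEY2, CXCR4 and ETV2 were not detected, with means of 0.538 to 1.23 CPM. Of the 19 detected genes SMAD6, CLDN5 and ETS1 passed the test of spread, against 4.66% of all detected genes. CLDN5, the tight junction claudin of brain endothelium, was at 237 and 252 CPM in replicates 2 and 8 against 71.5 to 94.7 CPM in the other 6 (edgeR adjusted p = 7.36e-04). SMAD6, an inhibitory SMAD, gave 11.0, 16.2, 12.7, 10.7, 16.1, 31.2, 50.7 and 20.3 CPM (edgeR adjusted p = 4.02e-04), highest in replicate 7. ETS1, an endothelial transcription factor, was lowest in replicates 8 and 2, at 69.6 and 85.9 CPM (edgeR adjusted p = 0.0355). Without replicates 2, 7 and 8 the genes that passed were SMAD6, ITGB3, KDR and PDGFB, against 2.42% of all detected genes. CLDN5 and ETS1 did not pass there. SMAD6 did not pass without replicate 7 alone, and ETS1 did not without replicate 2, 5 or 8 alone.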

How the data were processed

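RNA of 8 hCMEC/D3 samples was sequenced from TruSeq RNA v2 libraries of polyadenylated RNA, per the labels' protocols. The submitters' processing notes name CASAVA 1.9, TopHat2 2.0.6, HTSeq and the hg19 build; their settings, including the use of strand, were not given in the sources used here. The authors deposited whole, not normalised counts per gene, all 186768 of them even, so halved counts are called read pairs. They also deposited CQN values, read as log2 from their range and named so per the file headers, which adjust each library for length and GC content. All per-sample columns were matched to samples by replicate number (0 others). Table starts were read as counting from 0 and are printed 1-based.

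CPM used the deposited counts with TMM scaling (edgeR 4.0.16, R 4.3.3). RPKM used the length of the canonical transcript in GENCODE 44 lifted to GRCh37, matched for all 44 members and 20897 listed genes. Tests were the goodness-of-fit test of edgeR, adjusted by Benjamini-Hochberg over 11980 detected genes, and exact sign-flip permutations (256 patterns) over 14 pairs with a pseudocount of 0.1. The length and GC trend of each library was a natural spline with 5 degrees of freedom for each property; genes with no matched length were not corrected. Intervals (95%) and the limit of 3 read pairs cover counting error only. DESeq2 1.42.0 gave an alternative scaling and trend. Library pairs differed beyond sampling noise (lowest chi-square per degree of freedom 5.04 over 28 pairs), so none was merged. Total counts were 69388544 to 90205244 per library.

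Named genes are all 44 members and, of each pathway list, the 3 detected genes of highest mean CPM, each gene past the test and the genes not detected; the values of 1 member and of 1 cofactor are not reported here. Members and lists were chosen with earlier results of these data known.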

Additional observations from a re-analysis of the deposited data

How the results depend on the processing

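No paired analysis was possible because all samples belong to 1 group. The number of detected forkhead genes was 16 and ran from 15 to 23 over the alternatives, the last for at least 10 counts in every library, and was 16 with each replicate left out. The number of forkhead genes past the edgeR test of spread was 1, became 2 against the DESeq2 trend (FOXN2 and FOXP4) and 2 with the length and GC trend removed (FOXC2 and FOXP4), and ran from 0 to 1 with each replicate left out, 0 being without replicate 2. With the length and GC trend removed, the edgeR counts of pathway genes went from 0 to 1 for FOXO regulators and 3 to 7 for FOXO targets. They went from 2 to 0 for FOXM1 targets and partners and 0 to 1 for cofactors. Over all detected genes the share called went from 4.66% to 6.59%. Without replicates 2, 7 and 8 the FOXM1 count was also 0.

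Of the 14 pair ratios, 11 kept direction and call under all alternatives run, values without replicates 2, 7 and 8 having no test. The other 3 were FOXO3/FOXO4, FOXK1/FOXK2 and FOXP1/FOXP4. FOXO3/FOXO4 was 1.03 with no length, 0.35 on CQN values and -0.0621 to 0.18 with each replicate left out, being -0.019, -0.0086, -0.0621 and -0.021 without replicates 3, 4, 5 and 6. FOXK1/FOXK2 was 0.34 over all exons, 0.74 with no length and 0.31 on CQN values. FOXP1/FOXP4 was -1.53 over all exons and 0.46 with no length. Leaving out each replicate gave -5.84 to -5.70 for FOXC1/FOXC2, -5.64 to -5.53 for FOXF2/FOXF1, 0.50 to 0.67 for FOXC1/FOXQ1 and -0.39 to -0.27 for FOXK1/FOXK2. The table's own gene spans, tried for single-exon pairs after seeing the data, gave -6.40 for FOXC1/FOXC2. With 17 read pairs for FOXF2 and 78 for FOXQ1 over all libraries, depth limits both genes.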

Other observations

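The other listed genes within 300 kb of the clusters were read after the values of the forkhead genes were known. Beside FOXQ1, FOXF2 and FOXC1, GMDS, an enzyme of GDP-fucose synthesis, was at 12.9 ± 2.62 CPM (7.72 RPKM; SD, n = 8), while LINC01622 was at 0 in all 8 libraries. Beside the 16q24.1 genes, MTHFSD was at 11.8 ± 1.31 CPM (3.89 RPKM; SD, n = 8), FLJ30679 at a mean of 0.386 CPM and LINC00917 at 0.00304 CPM, and LINC02135 was at 0.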
